A study of Mus musculus with 9 samples.

Results

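The 10 genes described here encode the machinery that puts peptides on the cell surface with MHC class I molecules. They are the light chain gene B2m, the heavy chain genes H2-K1 and H2-D1, the peptide transporter and loading genes Tap1, Tap2 and Tapbp, the inducible proteasome subunits Psmb8, Psmb9 and Psmb10, and the transactivator Nlrc5. They were chosen by name, and all 10 had at least 1 probe set that the array annotation gives to the gene alone, 27 probe sets in all of the 45101 on the array. All 10 passed the filter on dim signals and are among 13409 genes tested, out of 18193 with a probe set of their own. The main value of a gene is that of its brightest probe set over the 9 arrays.

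The study compared primary mammary tumours grown from 3 mouse carcinoma lines, 67NR, 66cl4 and 4T1, under the question of what part the epithelial to mesenchymal transition has in metastasis. Female BALB/c mice of 7 to 9 weeks received 1000000 viable cells in a mammary gland, 3 mice per line, and the tumours were removed on day 15. All injected cells carried the CMVLUC construct named in the labels (67NR/CMVLUC, 66cl4/CMVLUC and 4T1/CMVLUC), each group is 1 cell line in a host of its own strain, and no untreated tissue is part of the comparison. RNA of the tumour areas, cut out by laser capture, was hybridized to 1 Affymetrix array per mouse. The 3 lines descend from 1 mammary tumour and are used as a ladder of metastatic capacity, with 67NR tumours staying at the primary site and 66cl4 and 4T1 reaching distant organs.

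Class I molecules display short peptides cut from proteins made inside the cell, and CD8 T cells read them. The proteasome cuts the proteins, and under interferon its catalytic subunits are exchanged for Psmb8, Psmb9 and Psmb10, which yields the immunoproteasome. The transporter made of Tap1 and Tap2 moves peptides into the endoplasmic reticulum, where tapasin (Tapbp) helps to load them on a heavy chain bound to beta-2 microglobulin. Nlrc5 does not bind these sites on its own and acts at the promoters of these genes through a complex of RFX, CREB/ATF and NF-Y proteins. Tumour cells with little class I on their surface are hard for CD8 T cells to see, while natural killer cells can respond to its loss.

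Values are log2 signals, given for replicates 1, 2 and 3 of a line in that order, and differences are on the same scale with the standard error (SE) of a linear model fitted to all 9 arrays. A gene was called at a limma p under 0.05 after Benjamini-Hochberg adjustment over all 13409 genes. Where a count of 0 calls in a direction is given below, 0 genes of that group passed an unadjusted limma p of 0.05 in it with all 9 arrays. Arrays had medians of 5.51 to 5.58. Control probe sets for bacterial transcripts, which stand for background, reached 4.83 to 5.08 on the single arrays. The 3 arrays of a line come from separate mice, and their number limits the precision. Each array's file name holds a running number, highest for the 3 arrays of 67NR. The spiked hybridization controls also differed by line, at 11.16 ± 0.30 for 67NR, 10.86 ± 0.23 for 66cl4 and 10.46 ± 0.22 for 4T1 (SD, n = 3), so both were also tried as a covariate. Changes under them are given beside the results of the 10 genes and beside the other counts and calls they bear on.

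The 10 genes had the same order of mean signals, lowest in 66cl4, higher in 67NR and highest in 4T1. All 10 differed among the lines by the F-test (adjusted p from 1.25e-07 to 0.000112), a call made for 56.6% of all genes. In 66cl4, 9 genes were lower than in 67NR and 0 were higher, with a median difference of -1.12 against 0.01 over all genes. In 4T1, 9 genes were higher than in 67NR and 0 were lower, with a median of 1.02 against -0.03. Between 4T1 and 66cl4 all 10 were higher in 4T1, with a median of 2.02 against -0.03. For 8 genes all 3 pairs of lines were called, and the exceptions were B2m, which was not called between 67NR and 4T1, and Psmb10, which was not called between 67NR and 66cl4.

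Such calls were common in these tumours, which differed widely. Of all genes, 16.0% were called lower and 20% higher in 66cl4 than in 67NR, 19.4% higher and 20.5% lower in 4T1 than in 67NR, and 17.9% higher and 23.4% lower in 4T1 than in 66cl4. The counts given below for lists of other genes are to be read against these shares. The single values of 66cl4 and 67NR did not overlap for 9 of the 10 genes, those of 4T1 and 67NR for 9, and those of 4T1 and 66cl4 for 10. Over all genes the shares without overlap were 52.5%, 49.7% and 50.9%. A called difference of 2-fold or more was reached by 5 of the 10 in each comparison with 67NR and by 9 between 4T1 and 66cl4. Over all genes a difference of 2-fold or more in either direction, called or not, was reached by 11.3% for 66cl4 minus 67NR. The shares were 13.8% for 4T1 minus 67NR and 13.9% for 4T1 minus 66cl4. The comparisons share arrays, so the counts are not independent of each other.

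**Figure D1:**
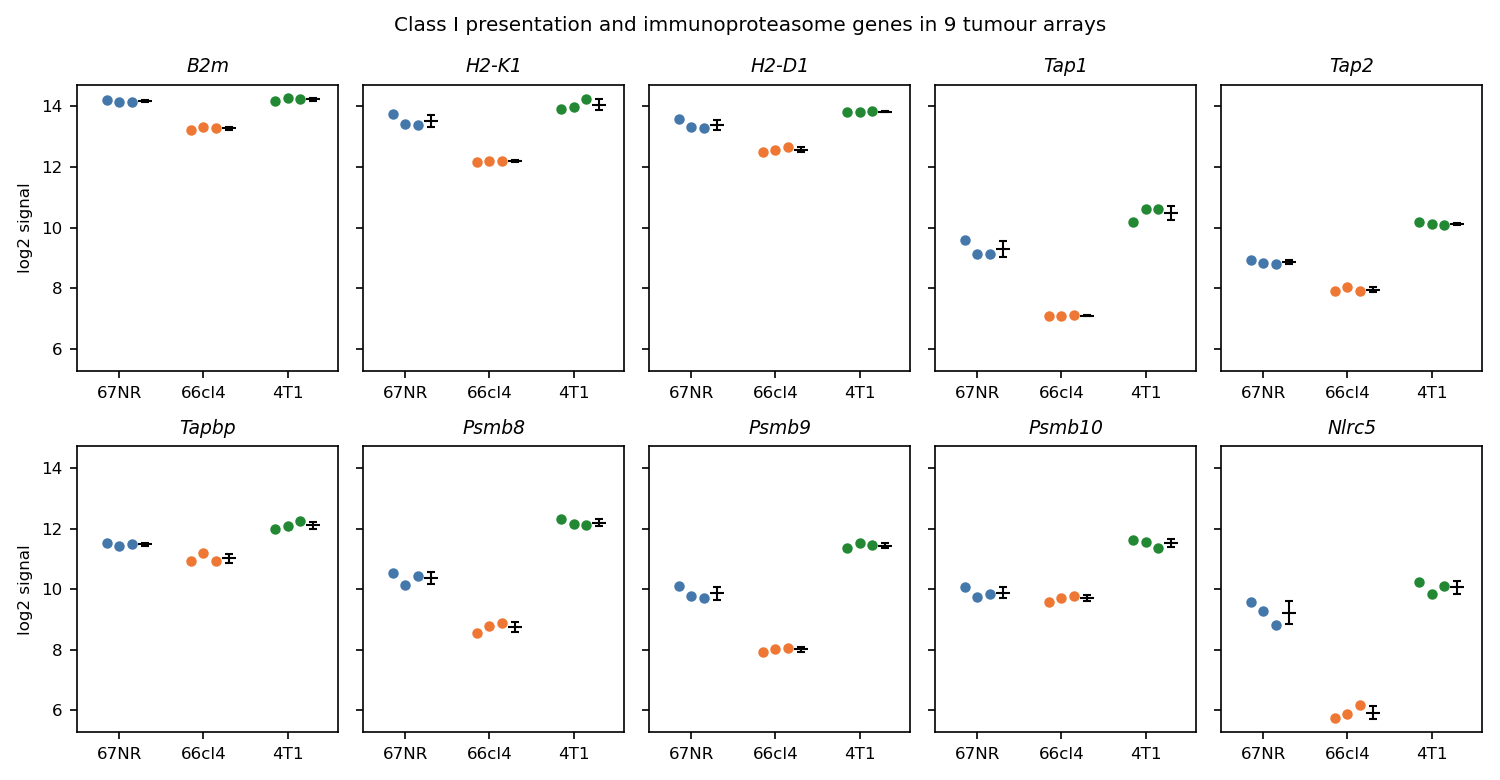
Log2 signal (y axis, 1 scale for all panels) of the 10 genes in tumours of 67NR, 66cl4 and 4T1 (x axis). Points are single mice, and the black bar beside them is the mean with its SD over 3 mice. The 66cl4 points lie below the 67NR points for every gene but Psmb10, and the 4T1 points lie above the 67NR points for every gene but B2m.

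B2m, the light chain shared by all class I molecules, had values of 14.22, 14.16 and 14.15 in 67NR, 13.23, 13.31 and 13.29 in 66cl4 and 14.19, 14.29 and 14.25 in 4T1. The 66cl4 tumours stood below all others, and 67NR and 4T1 overlapped. B2m was 1.87-fold lower in 66cl4 than in 67NR (-0.90 ± 0.09 on the log2 scale, adjusted p = 5.3e-05) and 1.96-fold higher in 4T1 than in 66cl4 (adjusted p = 2.25e-05). Between 4T1 and 67NR the difference was 0.07 ± 0.09 (adjusted p = 0.585), and a further B2m probe set gave -0.03. Its values lie near the highest signal on the arrays, 14.8.

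H2-K1 and H2-D1 encode the classical heavy chains that hold the peptide. H2-K1 read 13.75, 13.43 and 13.39 in 67NR, 12.15, 12.20 and 12.21 in 66cl4 and 13.92, 13.99 and 14.26 in 4T1, with no overlap between lines. It was 2.53-fold lower in 66cl4 than in 67NR (-1.34 ± 0.13, adjusted p = 5.46e-05) and 3.66-fold higher in 4T1 than in 66cl4 (1.87 ± 0.13, adjusted p = 4.21e-06). H2-D1 read 13.58, 13.31 and 13.29 in 67NR, 12.51, 12.57 and 12.65 in 66cl4 and 13.82, 13.83 and 13.84 in 4T1. Its lines did not overlap either, and it was 1.76-fold lower in 66cl4 than in 67NR (-0.82 ± 0.11, adjusted p = 0.000299) and 2.38-fold higher in 4T1 than in 66cl4. The step from 67NR to 4T1 was smaller for both, 0.53 ± 0.13 for H2-K1 (adjusted p = 0.00886) and 0.43 ± 0.11 for H2-D1 (adjusted p = 0.00887). Class I heavy chain genes are close copies and highly variable between strains, so a probe set named for 1 of them may also read others.

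The promoters of the light chain and of a heavy chain are shown because the class I transactivator complex works on them. Sequences are the 250 bases upstream of a gene start in RefSeq's table for GRCm38.p6, which held 8 of the 10 genes, Tap2 and Nlrc5 being the missing ones. They are those of the reference genome and were not read in the BALB/c tumours. Capitals mark matches to searched motifs, read on both strands. These were an interferon response element (GAAANNGAA), an interferon gamma activated site (TTCNNNGAA), the kappaB consensus, a cAMP response half-site (TGACG) and a CCAAT box (CCAAT).
B2m promoter, chr2:122147437-122147686, plus strand: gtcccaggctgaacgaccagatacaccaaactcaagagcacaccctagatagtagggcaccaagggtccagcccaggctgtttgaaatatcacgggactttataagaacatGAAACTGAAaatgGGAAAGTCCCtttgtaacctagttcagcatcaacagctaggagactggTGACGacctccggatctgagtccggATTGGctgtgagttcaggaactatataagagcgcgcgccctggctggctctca
H2-D1 promoter, chr17:35262844-35263093, plus strand: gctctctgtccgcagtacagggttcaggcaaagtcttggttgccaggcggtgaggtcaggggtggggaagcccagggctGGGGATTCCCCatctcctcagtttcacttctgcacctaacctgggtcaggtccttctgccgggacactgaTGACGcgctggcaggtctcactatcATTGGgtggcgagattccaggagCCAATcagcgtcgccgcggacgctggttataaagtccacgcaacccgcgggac
The capitals in B2m are, in order, the interferon element, the kappaB match, the half-site and a CCAAT box on the other strand. Those in H2-D1 are 2 overlapping kappaB matches in 1 run, the half-site, a CCAAT box on the other strand and one on the strand shown.

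In B2m, H2-D1 and H2-K1 the first base of the half-site and the first base of the reversed CCAAT box were 25 bases apart. That spacing was taken from these 3 genes after the matches were seen. It occurred in 30 of the 32851 promoters of the table (0.0913%). The 3 of the 8 genes found there were fixed by this choice and cannot be set against that share. H2-K1 has 2 starts in the table, and the window used lies inside its annotated gene span. The H2-K1 and H2-D1 promoters are near copies, with 166 of 190 aligned bases identical (87.4%), so these are not independent matches. Over the 8 promoters a kappaB match was found in 3, a half-site in 5 and a CCAAT box in 6. The windows of Tap1 and Psmb9 overlap, and their half-site and CCAAT box are the same bases read on opposite strands. Each of these matches is thus counted for both genes. The letters searched for the interferon element, GAAANNGAA, were matched in B2m alone, and those for the activated site in Psmb8 alone. Over all promoters the shares were 7.25% for kappaB, 17.8% for the half-site, 33.8% for the CCAAT box, 7.13% for the interferon element and 7.02% for the activated site. A match is a run of letters and not a measured binding site, and a site written in other letters would be missed.

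Tap1 and Tap2 form the peptide transporter. Tap1 had 9.59, 9.13 and 9.13 in 67NR, 7.08, 7.08 and 7.10 in 66cl4 and 10.20, 10.63 and 10.62 in 4T1. The 66cl4 values were nearly equal to each other and far below the rest, and no lines overlapped. Tap1 was 4.58-fold lower in 66cl4 than in 67NR (-2.19 ± 0.16, adjusted p = 9.09e-06), 2.30-fold higher in 4T1 than in 67NR (1.20 ± 0.16, adjusted p = 0.000269) and 10.5-fold higher in 4T1 than in 66cl4 (adjusted p = 3.05e-07). Tap2 had 8.94, 8.83 and 8.81 in 67NR, 7.91, 8.04 and 7.90 in 66cl4 and 10.17, 10.12 and 10.09 in 4T1. It differed in the same directions without overlap, 1.88-fold lower in 66cl4 than in 67NR (-0.91 ± 0.09, adjusted p = 7.03e-05) and 2.41-fold higher in 4T1 than in 67NR (1.27 ± 0.09, adjusted p = 6.17e-06).

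Tapbp encodes tapasin, which bridges the transporter and the empty heavy chain. Its values were 11.51, 11.42 and 11.49 in 67NR, 10.92, 11.19 and 10.93 in 66cl4 and 11.98, 12.08 and 12.24 in 4T1. The lines did not overlap, but the steps were among the smaller ones of the 10 genes. Tapbp was 1.38-fold lower in 66cl4 than in 67NR (-0.46 ± 0.11, adjusted p = 0.0105), 1.54-fold higher in 4T1 than in 67NR (0.62 ± 0.11, adjusted p = 0.0018) and 2.12-fold higher in 4T1 than in 66cl4. A dimmer Tapbp probe set was not called against 67NR in 66cl4 (-0.46 ± 0.23, limma adjusted p = 0.174) or in 4T1 (0.35 ± 0.23, limma adjusted p = 0.291).

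Psmb8, the inducible subunit that replaces Psmb5, read 10.53, 10.15 and 10.43 in 67NR, 8.55, 8.79 and 8.87 in 66cl4 and 12.31, 12.16 and 12.10 in 4T1. The 3 lines formed separate levels. Psmb8 was 3.11-fold lower in 66cl4 than in 67NR (-1.63 ± 0.13, adjusted p = 1.81e-05), 3.52-fold higher in 4T1 than in 67NR (1.82 ± 0.13, adjusted p = 6.21e-06) and 10.9-fold higher in 4T1 than in 66cl4 (adjusted p = 1e-07). Psmb9, which replaces Psmb6, read 10.10, 9.76 and 9.72 in 67NR, 7.93, 8.02 and 8.07 in 66cl4 and 11.35, 11.51 and 11.45 in 4T1. It too had 3 separate levels, 3.61-fold lower in 66cl4 than in 67NR (-1.85 ± 0.12, adjusted p = 4.89e-06) and 2.99-fold higher in 4T1 than in 67NR (1.58 ± 0.12, adjusted p = 8.63e-06).

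Psmb10, which replaces Psmb7, read 10.08, 9.74 and 9.83 in 67NR, 9.59, 9.72 and 9.78 in 66cl4 and 11.61, 11.57 and 11.37 in 4T1. The 67NR and 66cl4 tumours overlapped, with a difference of -0.18 ± 0.12 (adjusted p = 0.275), while every 4T1 tumour was higher. Psmb10 was 3.11-fold higher in 4T1 than in 67NR (1.64 ± 0.12, adjusted p = 7.03e-06) and 3.52-fold higher than in 66cl4 (1.82 ± 0.12, adjusted p = 3.15e-06).

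The gene order of this group is shown by the stretch between Psmb9 and Tap1, which start in opposite directions with no gene between them. Of the 10 genes, 7 lie on chromosome 17, and Psmb9, Tap1, Psmb8 and Tap2 are direct neighbours there in RefSeq's gene table. B2m lies on chromosome 2, and Nlrc5 and Psmb10 lie on chromosome 8. The whole stretch between the starts of Psmb9 and Tap1 is 225 bases long, and capitals mark a CCAAT box and a half-site.
Psmb9 to Tap1, chr17:34187331-34187555, plus strand: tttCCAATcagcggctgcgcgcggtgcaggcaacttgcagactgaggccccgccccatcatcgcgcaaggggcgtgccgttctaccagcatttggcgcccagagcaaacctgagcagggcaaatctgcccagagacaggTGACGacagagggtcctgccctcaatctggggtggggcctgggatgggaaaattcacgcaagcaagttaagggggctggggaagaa
The 2 genes that share it had differences of like size, -1.85 and -2.19 between 66cl4 and 67NR and 1.58 and 1.20 between 4T1 and 67NR. Psmb8 and Tap2, the next neighbours, had -1.63 and -0.91 between 66cl4 and 67NR and 1.82 and 1.27 between 4T1 and 67NR.

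Nlrc5, the transactivator of class I genes, showed the widest range of the 10. It read 9.57, 9.29 and 8.81 in 67NR, 5.73, 5.87 and 6.17 in 66cl4 and 10.25, 9.83 and 10.09 in 4T1. The 66cl4 tumours were far below the others yet above background on all 3 arrays, and no lines overlapped. Nlrc5 was 9.84-fold lower in 66cl4 than in 67NR (-3.30 ± 0.20, adjusted p = 3.57e-06), 1.79-fold higher in 4T1 than in 67NR (0.84 ± 0.20, adjusted p = 0.00811) and 17.6-fold higher in 4T1 than in 66cl4 (4.14 ± 0.20, adjusted p = 4.23e-07).

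**Figure D2:**
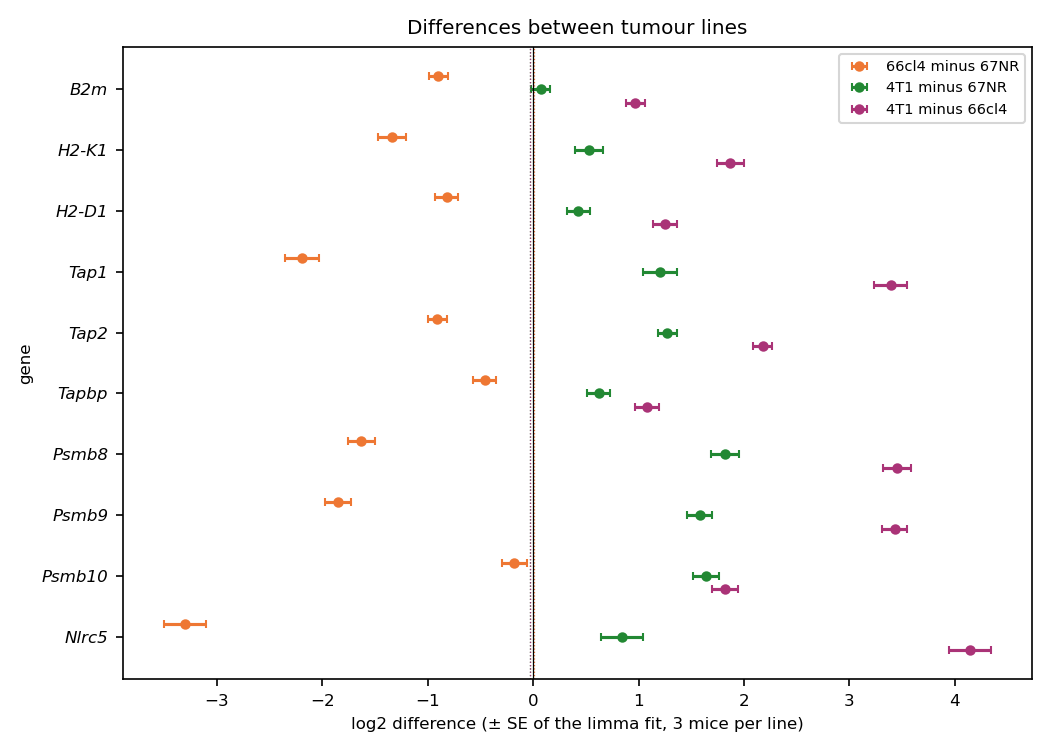
Log2 difference between lines (x axis) for the 10 genes (y axis), with bars for the SE of the limma fit. Orange points, 66cl4 minus 67NR, run from -3.30 to -0.18, green points, 4T1 minus 67NR, from 0.07 to 1.82, and purple points, 4T1 minus 66cl4, from 0.97 to 4.14. Dotted lines mark the medians over all genes, which lie near 0.

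The calls between 4T1 and 67NR were the ones that depended on the fit. With the file number of the array as a covariate 5 of the 10 genes were called higher in 4T1 instead of 9, and with the hybridization controls as a covariate also 5. Calls in either direction over all 13409 genes fell too, to 2661 and 2151 in that order. Without a covariate they were 2603 higher and 2744 lower. The median difference of the 10 genes was 0.99 and 0.85, against 1.02 without a covariate. Under both covariates, Tap1, Tap2, Psmb8, Psmb9 and Psmb10 were called, while H2-K1, H2-D1, Tapbp and Nlrc5 were not. H2-K1 had 0.35 (adjusted p = 0.285) and 0.33 (adjusted p = 0.345), H2-D1 had 0.47 (adjusted p = 0.109) and 0.34 (adjusted p = 0.26), Tapbp had 0.57 (adjusted p = 0.0777) and 0.61 (adjusted p = 0.0764), and Nlrc5 had 0.89 (adjusted p = 0.12) and 0.45 (adjusted p = 0.397), with the file number and the controls in that order. The counts for 66cl4 against 67NR and for 4T1 against 66cl4 stayed at 9 and 10 under both.

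The further probe sets of the genes gave the same directions for every difference that was called. B2m, not called between 4T1 and 67NR, had 0.07 there by its brightest probe set and -0.03 by the other. Of the 27 probe sets, 24 passed the filter. Of these, 22 were called lower in 66cl4 than in 67NR, 17 higher in 4T1 than in 67NR and 24 higher in 4T1 than in 66cl4, and 0 were called in the opposite direction. Sizes varied within a gene. The 8 tested probe sets of H2-D1 ranged from -1.41 to -0.81 for 66cl4 minus 67NR, the 4 of H2-K1 from -1.84 to -0.89 and the 2 of Tap1 from -2.19 to -0.70. Tap2, Psmb9, Psmb10 and Nlrc5 have 1 probe set each, so their values have no second reading on the array.

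**Figure D3:**
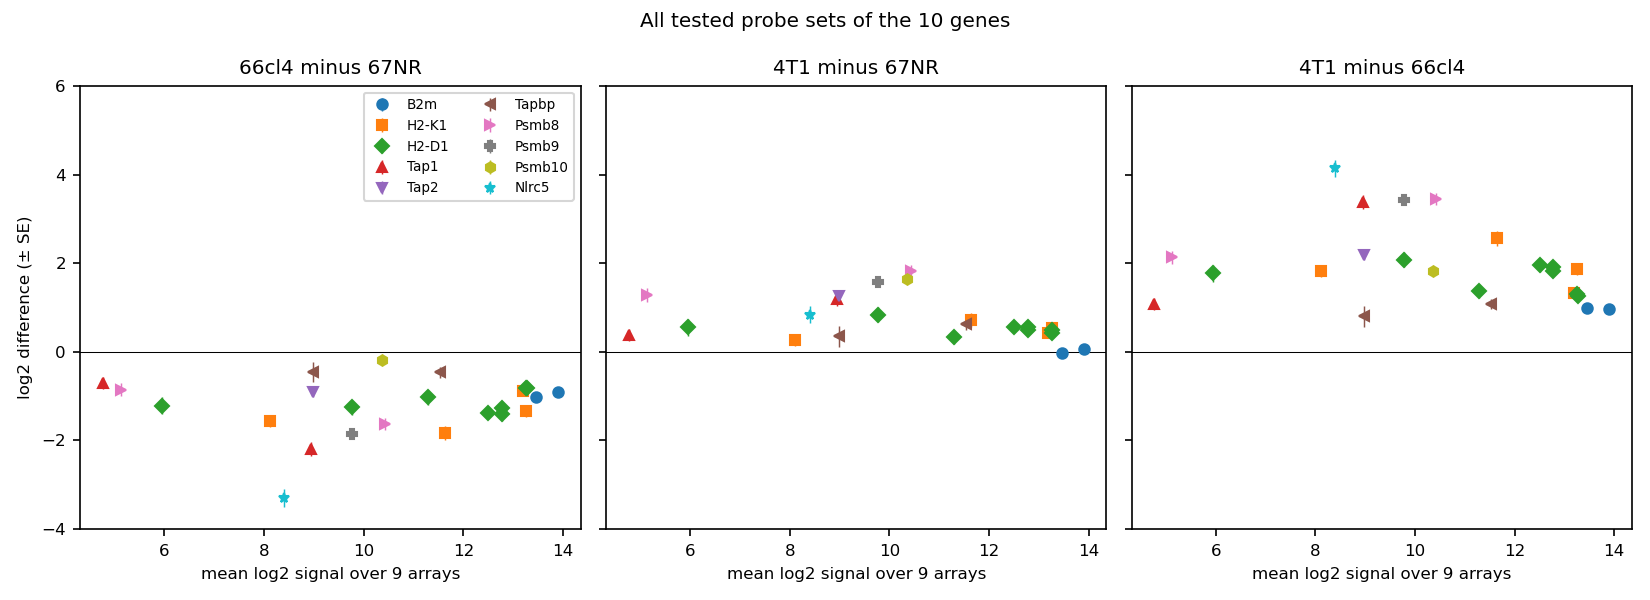
Log2 difference with its SE (y axis) against the mean log2 signal over the 9 arrays (x axis) for the 24 tested probe sets, 1 symbol and colour per gene, 1 panel per comparison. All 24 points lie below 0 for 66cl4 minus 67NR and above 0 for 4T1 minus 66cl4, and dim probe sets of Tap1 and Psmb8 have smaller differences than the bright ones. H2-D1 goes the other way, since its brightest probe set has -0.82 for 66cl4 minus 67NR and dimmer ones reach -1.41.

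The constitutive catalytic subunits, whose places the inducible ones take, had smaller differences. Psmb5 read 10.52, 10.51 and 10.57 in 67NR, 10.58, 10.67 and 10.57 in 66cl4 and 10.88, 10.62 and 10.47 in 4T1, with adjusted p from 0.443 to 0.785 over the 3 comparisons. Psmb6 was lower than in 67NR in both other lines, by -0.42 ± 0.12 in 66cl4 (adjusted p = 0.0243) and by -0.68 ± 0.12 in 4T1 (adjusted p = 0.00176). The first of these calls was lost without 67NR replicate 1 (adjusted p = 0.0556), 67NR replicate 3 (0.084), 66cl4 replicate 1 (0.0853) or 66cl4 replicate 3 (0.0506), and with replicate number as a block (0.0504). With the file number as a covariate neither was called, at -0.21 (adjusted p = 0.272) and -0.35 (adjusted p = 0.179), nor with the hybridization controls, at -0.34 (adjusted p = 0.109) and -0.50 (adjusted p = 0.142). Psmb7 was not called in any comparison (adjusted p from 0.0988 to 0.877), although without 67NR replicate 1 it was called lower in 66cl4 and in 4T1 than in 67NR (-0.42, adjusted p = 0.0318, and -0.38, adjusted p = 0.0374).

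To set each exchange pair side by side, the log2 difference of the inducible and the constitutive subunit was taken within each array and centred on its mean in 67NR. Psmb8 over Psmb5 stood at 0.17, -0.19 and 0.02 in 67NR, -1.87, -1.72 and -1.54 in 66cl4 and 1.59, 1.70 and 1.79 in 4T1. Psmb9 over Psmb6 stood at 0.27, -0.01 and -0.25 in 67NR, -1.39, -1.50 and -1.40 in 66cl4 and 2.04, 2.24 and 2.50 in 4T1. In both pairs the 3 lines had separate levels, with an exact permutation p of 0.00357 over 1680 arrangements, the smallest that 3 lines of 3 allow (0.00536 after adjustment over 3 pairs). Psmb10 over Psmb7 stood at 0.43, -0.19 and -0.25 in 67NR, 0.07, 0.15 and 0.13 in 66cl4 and 1.85, 2.04 and 1.81 in 4T1. Here 67NR and 66cl4 overlapped and 4T1 was higher (exact permutation p = 0.0214, the same after adjustment). The pairs were compared after their single values had been seen, and the level of 1 probe set says nothing about another's. Psmb8 and Psmb9 alone already had 3 separate levels, so the p of their pairs restates that and is not a test of an exchange.

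**Figure D4:**
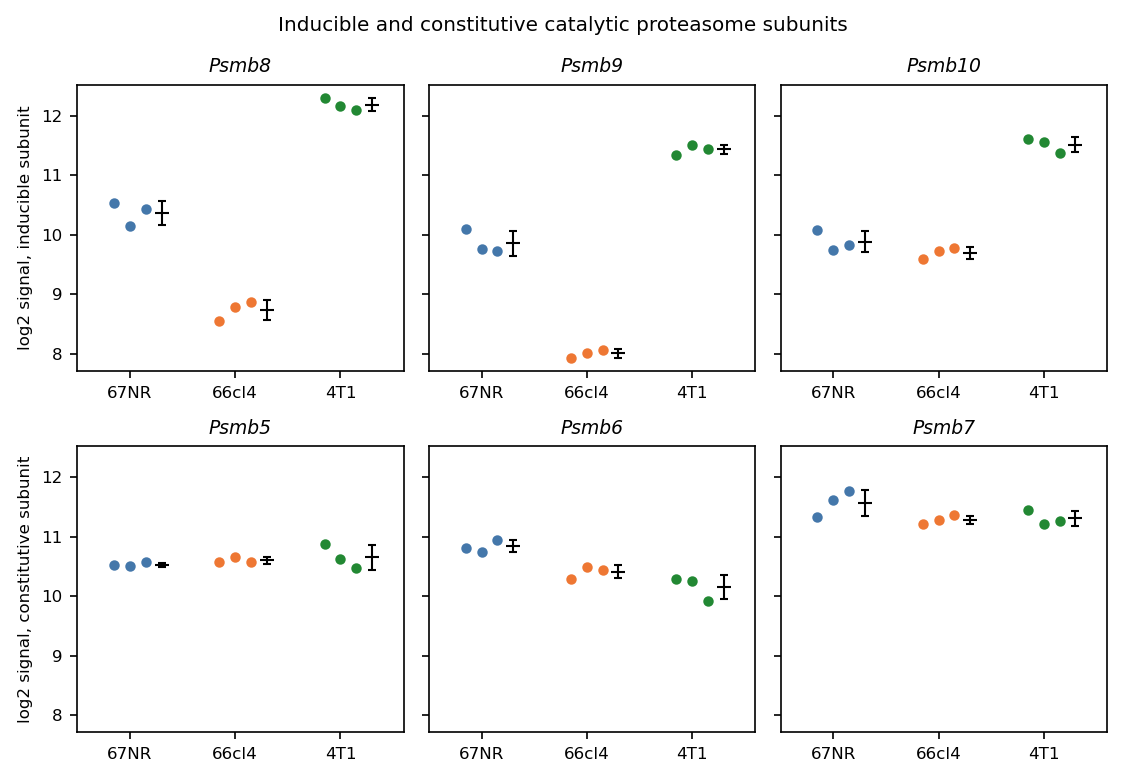
Log2 signal (y axis, 1 scale for all panels) of the inducible subunits Psmb8, Psmb9 and Psmb10 (top) and of the constitutive subunits Psmb5, Psmb6 and Psmb7 (bottom) in 3 tumours of each line (x axis), with the mean and SD in black. The inducible subunits move by up to 3.45 between 66cl4 and 4T1, and the constitutive ones by at most 0.68 between any lines.

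Other parts of the proteasome gave scattered calls. Of 14 other subunits of the 20S core and its assembly factors, 1 was higher and 4 were lower in 66cl4 than in 67NR, 3 higher and 2 lower in 4T1 than in 67NR, and 4 higher and 0 lower in 4T1 than in 66cl4, with medians of -0.01, 0.08 and 0.23. Most of these counts rested on single arrays. Without 67NR replicate 2 or 3 or 66cl4 replicate 1 or 2 the 4 lower became 1, and without 67NR replicate 1, 66cl4 replicate 3 or 4T1 replicate 1 they became 2. Without 67NR replicate 2 or 66cl4 replicate 2 the 1 higher became 0, without 4T1 replicate 3 the 3 higher became 5, and without 67NR replicate 2 or 3 or 4T1 replicate 1 or 2 the 2 lower became 1. Between 4T1 and 66cl4 the 4 higher became 1 without 66cl4 replicate 1 or 4T1 replicate 2 and 2 without 66cl4 replicate 3 or 4T1 replicate 1, and the 0 lower became 1 without 4T1 replicate 1. With either covariate the 4 lower in 66cl4 became 1 and the 2 lower in 4T1 became 1. With the hybridization controls the 3 higher in 4T1 than in 67NR became 1, and with the file number the 4 higher in 4T1 than in 66cl4 became 7. Psmb3, a structural subunit, was lower than in 67NR in both lines, by -0.97 ± 0.11 in 66cl4 (adjusted p = 0.000134) and -0.98 ± 0.11 in 4T1 (adjusted p = 8.88e-05).

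Psme1, a subunit of the interferon-inducible PA28 activator that opens the proteasome, read 11.09, 11.05 and 10.97 in 67NR, 11.31, 11.21 and 11.23 in 66cl4 and 12.03, 11.93 and 12.01 in 4T1. All 4T1 values were above the rest, by 0.96 ± 0.09 over 67NR (adjusted p = 3.21e-05) and 0.74 ± 0.09 over 66cl4 (adjusted p = 0.000159), while 66cl4 and 67NR were not called apart (0.21 ± 0.09, adjusted p = 0.0942; 0.0438 with a mean-variance trend). Psme3, of another PA28 form, was not called in any comparison (adjusted p from 0.882 to 0.946). Psme4, the PA200 activator, was lower in 66cl4 than in 67NR (-0.58 ± 0.10, adjusted p = 0.00169). Psme4 in 4T1 lay between them, with -0.29 ± 0.10 against 67NR (adjusted p = 0.0472) and 0.29 ± 0.10 against 66cl4 (adjusted p = 0.0424). The first of these calls was lost with either covariate, with a replicate block and without any single array other than 67NR replicate 3 (adjusted p from 0.0506 to 0.241). The second was lost with the same covariates and block and without any single array other than 67NR replicate 1 or 3 (adjusted p from 0.055 to 0.283). Psme2 is not analysed here, since no probe set is annotated to it alone.

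Among 16 tested genes of peptide loading, trimming and chaperones, 7 were higher and 4 lower in 4T1 than in 67NR (median 0.22), or 3 and 0 with either covariate, and 6 were higher and 2 lower in 4T1 than in 66cl4 (median 0.12). Without 66cl4 replicate 3 the 2 lower became 0, and without 4T1 replicate 1 they became 1, and with the hybridization controls 0. Tapbpl, a tapasin-like peptide editor, read 7.66, 7.57 and 7.35 in 67NR, 6.94, 7.25 and 7.16 in 66cl4 and 9.10, 9.60 and 9.33 in 4T1. The 4T1 tumours stood well above both others, 3.53-fold over 67NR (1.82 ± 0.15, adjusted p = 1.37e-05) and 4.69-fold over 66cl4 (adjusted p = 3.43e-06), and 66cl4 was not called apart from 67NR (-0.41 ± 0.15, adjusted p = 0.0591; called without 4T1 replicate 1, at 0.038, or 2, at 0.04). Erap1, which trims peptides in the endoplasmic reticulum, was higher in 4T1 than in 67NR by 0.48 ± 0.10 (adjusted p = 0.00415, or 0.0996 with the hybridization controls as a covariate) and than in 66cl4 by 0.76 ± 0.10. Uggt1, a glucosyltransferase that checks heavy chain folding, was higher in 4T1 by 0.83 ± 0.12 over 67NR and 0.82 ± 0.12 over 66cl4 (adjusted p = 0.000591 and 0.000603).

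The chaperone gene Hsp90b1 was lower than in 67NR in both 66cl4 (-0.94 ± 0.13, adjusted p = 0.000547) and 4T1 (-0.75 ± 0.13, adjusted p = 0.00173). The second call was lost with the file number (-0.58, adjusted p = 0.111) or the hybridization controls (-0.47, adjusted p = 0.175) as a covariate. Between 66cl4 and 67NR this list held 2 higher and 2 lower genes (median -0.13), or 1 and 1 with either covariate. The 2 higher became 1 without any single 67NR replicate or without 66cl4 replicate 1 or 3. The 2 lower became 1 without 67NR replicate 2 or 3 or any single 66cl4 replicate, and 4 without 4T1 replicate 2 or 3.

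Of 23 further class I heavy chains and class I-like genes, 10 had a probe set of their own and 8 passed the filter. In 66cl4, 4 were lower and 0 higher than in 67NR (median -0.57). In 4T1, 3 were higher (1 with either covariate) and 1 lower than in 67NR (median 0.10), and 5 were higher and 0 lower than in 66cl4 (median 0.79). H2-Q5, a nonclassical heavy chain, read 8.40, 8.19 and 8.21 in 67NR, 5.79, 5.71 and 5.97 in 66cl4 and 9.08, 9.95 and 10.11 in 4T1. It repeated the order of the classical chains without overlap, at -2.44 ± 0.23 for 66cl4 minus 67NR (adjusted p = 4.82e-05) and 1.45 ± 0.23 for 4T1 minus 67NR (adjusted p = 0.000863, or 0.0681 with the file number as a covariate).

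H2-M3, which presents formylated peptides, was lower in 66cl4 than in 67NR (-0.79 ± 0.16, adjusted p = 0.00376, or 0.0575 with the file number as a covariate), with 0.19 ± 0.16 between 4T1 and 67NR (adjusted p = 0.383). Cd1d1, which presents lipids to NKT cells, was higher in 4T1 than in 67NR (1.07 ± 0.22, adjusted p = 0.00343, or 0.19 with the hybridization controls as a covariate) and than in 66cl4 (1.41 ± 0.22, adjusted p = 0.000673). H2-M9 was above background in 67NR only, at 7.51, 6.18 and 6.24, and not above it on any array of 66cl4 and 4T1. A bound was therefore taken from the brightest background probe set of each array, which put H2-M9 at least 3.33-fold higher in 67NR than in 66cl4 and at least 3.19-fold higher than in 4T1. Its highest level was thus in 67NR, where the classical chains had their middle level.

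**Figure D5:**
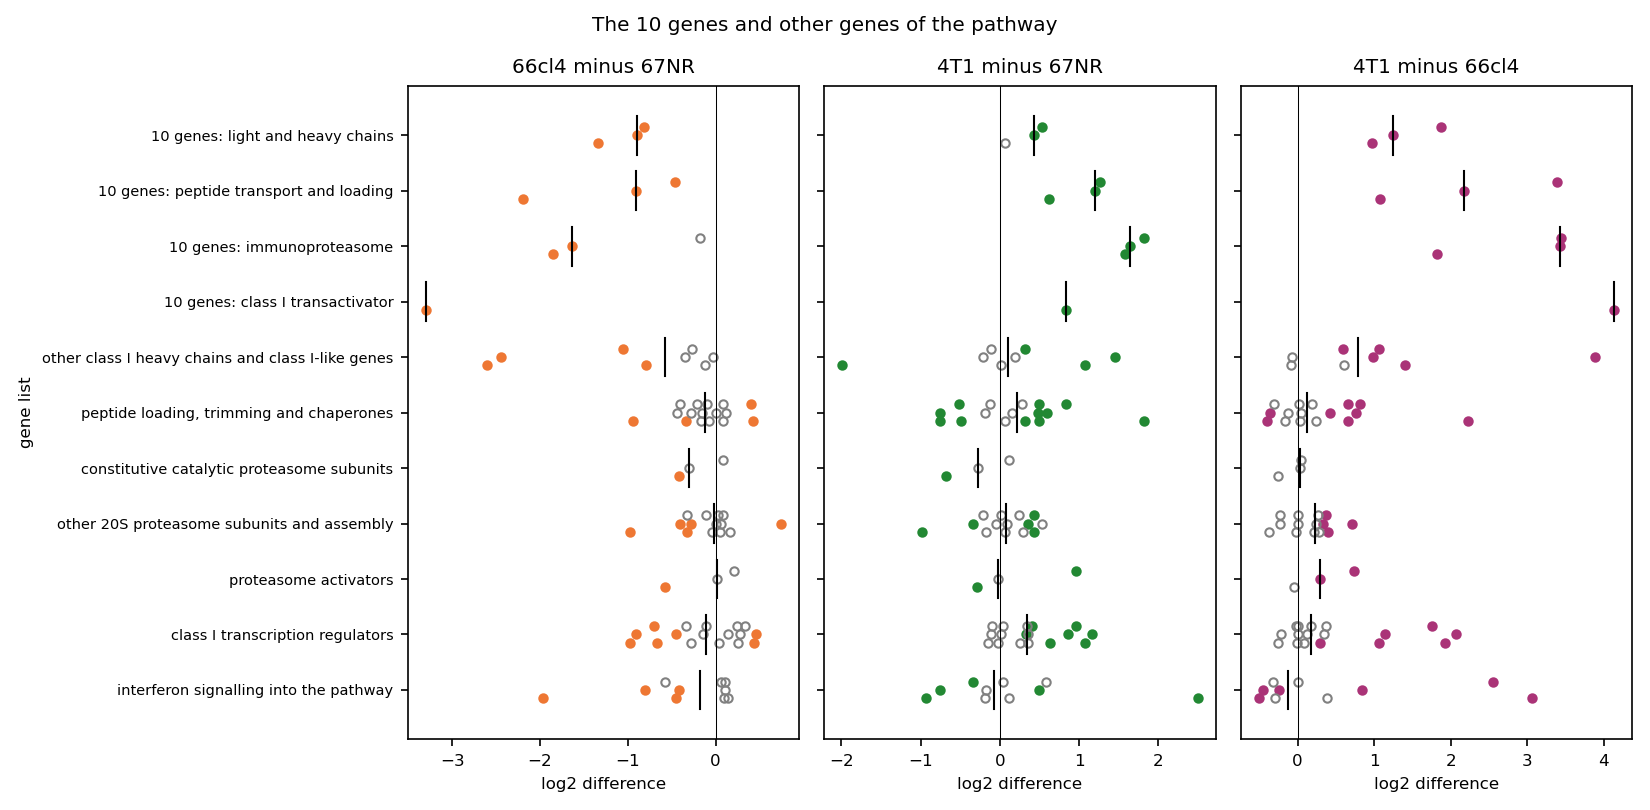
Log2 difference (x axis) of each tested gene in the groups of the 10 genes and in 7 lists of other pathway genes (y axis), 1 panel per comparison. Filled points passed the adjusted p of 0.05, open grey points did not, and black bars are medians. The groups of the 10 genes lie to one side of 0 in each panel, while the lists of loading factors, other proteasome subunits and interferon signalling spread to both sides.

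Among 17 tested regulators of class I transcription, 5 were lower and 2 higher in 66cl4 than in 67NR (median -0.11; 3 and 1 with the file number as a covariate), 7 higher and 0 lower in 4T1 than in 67NR (median 0.34), and 6 higher and 0 lower in 4T1 than in 66cl4 (median 0.17). Irf1, an interferon-induced factor that binds class I and immunoproteasome promoters, read 10.77, 10.71 and 10.49 in 67NR, 9.71, 9.57 and 9.77 in 66cl4 and 11.48, 11.61 and 11.76 in 4T1. Its lines did not overlap, with -0.98 ± 0.12 for 66cl4 minus 67NR (adjusted p = 0.000206) and 0.96 ± 0.12 for 4T1 minus 67NR (adjusted p = 0.000181). Stat2 and Ciita, the class II counterpart of Nlrc5, had the same order. Stat2 had -0.67 ± 0.15 and 1.08 ± 0.15 in those comparisons (adjusted p = 0.00703 and 0.000403), and Ciita -0.91 ± 0.21 and 1.16 ± 0.21 (adjusted p = 0.0082 and 0.00183). Stat2 lost the first call with the file number as a covariate (-0.65, adjusted p = 0.0532). Ciita lost the first call with the file number as a covariate (-0.73, adjusted p = 0.0927) and the second with the hybridization controls (1.22, adjusted p = 0.0632). In 66cl4 it was above background on 2 of 3 arrays.

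Irf9 was higher in 4T1 by 0.86 ± 0.12 over 67NR (adjusted p = 0.000429) and by 1.14 ± 0.12 over 66cl4, and was not called between 66cl4 and 67NR (-0.28 ± 0.12, adjusted p = 0.108). Rfx5, a DNA-binding part of the complex through which Nlrc5 acts, was not called in any comparison, with 8.55, 8.37 and 8.13 in 67NR, 8.64, 8.32 and 8.50 in 66cl4 and 8.38, 8.59 and 8.84 in 4T1 (adjusted p from 0.222 to 0.59).

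Interferon gamma is the main inducer of this gene group. Its gene Ifng read 6.08, 5.34 and 5.42 in 67NR, 3.59, 3.78 and 3.56 in 66cl4 and 5.35, 6.67 and 6.57 in 4T1. No 66cl4 array was above background, and 67NR and 4T1 overlapped. Against the background bound Ifng was at least 1.63-fold higher in 67NR than in 66cl4 (measured difference -1.97 ± 0.32, adjusted p = 0.00118) and at least 2.44-fold higher in 4T1 than in 66cl4 (adjusted p = 0.000206). Between 4T1 and 67NR it differed by 0.58 ± 0.32 (adjusted p = 0.189), and without 4T1 replicate 1 by 1.00 (adjusted p = 0.00485).

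The receptors and kinases of interferon signalling were called in both directions. Of 10 tested genes of interferon signalling, 4 were lower and 0 higher in 66cl4 than in 67NR (median -0.18), 2 higher and 3 lower in 4T1 than in 67NR (median -0.07), and 3 higher and 3 lower in 4T1 than in 66cl4 (median -0.12). The 4 lower became 1 without 67NR replicate 2 or 66cl4 replicate 1 or 2 and 2 without 67NR replicate 1 or 3, and the 2 higher became 1 without any single 67NR replicate, 66cl4 replicate 2 or 4T1 replicate 2 or 3. With either covariate the 4 lower in 66cl4 became 1 and the 3 lower in 4T1 than in 67NR became 1. With the file number the 2 higher became 1, and with the hybridization controls the 3 lower in 4T1 than in 66cl4 became 0. Jak2, a kinase of the interferon gamma receptor, read 9.14, 8.97 and 8.64 in 67NR, 8.30, 8.38 and 8.36 in 66cl4 and 10.74, 11.60 and 11.92 in 4T1. The 4T1 tumours stood apart, 5.64-fold above 67NR (2.50 ± 0.26, adjusted p = 5.94e-05) and 8.40-fold above 66cl4 (adjusted p = 1.55e-05). Jak2 was -0.57 ± 0.26 in 66cl4 against 67NR (adjusted p = 0.116, or 0.0132 without 4T1 replicate 1). The partner kinase Jak1 and the receptor chain Ifngr1 were lower in 4T1 than in 67NR, by -0.75 ± 0.14 (adjusted p = 0.00178) and -0.93 ± 0.13 (adjusted p = 0.000459). Jak1 lost that call with the file number as a covariate (adjusted p = 0.0632) and Ifngr1 with the hybridization controls (adjusted p = 0.0669).

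Across the 9 arrays Psmb9 lay closest to the mean of the other 9 genes (r = 0.999, each gene scaled to mean 0 and SD 1), and Psmb10 (r = 0.839) and B2m (r = 0.91) lay farthest. Outside the group the 6 genes most like the mean of the 10 were Mapk9 (r = 0.993), Ifi47 (r = 0.991), Oasl2, Mapkapk3, Jag1 and Cyb561 (r = 0.99 each). These r describe 9 points in 3 separate levels and have no test. The interferon-induced GTPase gene Ifi47 read 10.84, 10.60 and 10.47 in 67NR, 8.92, 8.70 and 9.05 in 66cl4 and 11.49, 12.02 and 11.90 in 4T1. The Notch ligand gene Jag1 read 8.29, 8.33 and 7.98 in 67NR, 7.13, 7.09 and 6.97 in 66cl4 and 9.05, 9.27 and 9.31 in 4T1. Both, chosen for this likeness, had their lowest values in 66cl4 and their highest in 4T1, with no overlap between lines.

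All nucleated cells can carry class I, so the cell content of the captured tissue is given beside these results. Fewer cells of a type and less RNA per cell cannot be told apart in bulk tissue. Of 13 tested markers of T and NK cells, 11 were lower and 0 higher in 66cl4 than in 67NR, 4 lower and 0 higher in 4T1 than in 67NR, and 5 higher and 2 lower in 4T1 than in 66cl4. Leaving out 66cl4 replicate 3 gave 2 and 1 higher in place of the 0, and leaving out 66cl4 replicate 1 or 2 gave 1 lower in place of the 2. Their summed linear signal was 2040 to 2930 in 67NR, 1110 to 3050 in 66cl4 and 1630 to 2780 in 4T1, so the sums overlapped. No marker was at background on all 3 arrays of a line, but several were on some arrays. In 66cl4, Cd8b1 and Cd247 were above it on 1 array, and Cd3g, Cd2 and Klrk1 on 2. In 4T1, Ncr1 was above it on 1, so differences of these genes run down to background. The 2 markers not called lower in 66cl4 were the cytotoxic granule genes Gzmb and Prf1, which carried most of the highest 66cl4 sum. Gzmb read 8.92, 8.64 and 8.69 in 67NR against 10.66, 9.79 and 8.26 in 66cl4, and Prf1 7.31, 7.25 and 7.36 against 9.24, 8.90 and 6.98, so both spread widely among the 66cl4 tumours.

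Cd8a, of the T cells that read class I, had 7.34, 6.63 and 6.63 in 67NR, 6.12, 5.89 and 5.70 in 66cl4 and 6.74, 7.58 and 7.25 in 4T1. The 66cl4 tumours were lowest (-0.96 ± 0.25 against 67NR, adjusted p = 0.0129), and 67NR and 4T1 overlapped (0.33 ± 0.25, adjusted p = 0.329). The T cell gene Cd3e was lower in 66cl4 than in 67NR (-0.78 ± 0.24, adjusted p = 0.0288), a call lost without 67NR replicate 1 (adjusted p = 0.105), 67NR replicate 2 (0.0664), 66cl4 replicate 2 (0.102) or 66cl4 replicate 3 (0.0733) and with a replicate block (0.0527). Without 4T1 replicate 1 it was called higher in 4T1 than in 66cl4 (0.67, adjusted p = 0.0423). Of 5 genes found across leukocytes, 1 was higher and 2 were lower in 66cl4 than in 67NR (median -0.19). With either covariate these became 0 and 1. The higher one was Cd53 (0.63 ± 0.21, adjusted p = 0.0396), whose call was lost without any single 67NR replicate or without 66cl4 replicate 1 or 2. The 2 lower became 1 without any single 67NR replicate, 66cl4 replicate 1 or 3 or 4T1 replicate 1 or 2. In 4T1, 2 were lower than in 67NR (median -0.37), and 0 with either covariate. Ptprc, one of these genes, was lower in both 66cl4 (-0.74 ± 0.14, adjusted p = 0.00258) and 4T1 (-0.66 ± 0.14, adjusted p = 0.00392) than in 67NR, the latter not with the file number (adjusted p = 0.107) or the hybridization controls (adjusted p = 0.112) as a covariate.

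Markers of macrophages and monocytes were called in both directions in 66cl4 and lower in 4T1. Of 11 tested, 3 were higher and 2 lower in 66cl4 than in 67NR, from -1.99 ± 0.23 for Aif1 to 1.69 ± 0.27 for Cd14 (adjusted p = 0.000148 and 0.000898), while 10 were lower and 0 higher in 4T1 than in 67NR, and 9 lower and 0 higher in 4T1 than in 66cl4. Without 66cl4 replicate 3 or with the file number as a covariate the last 0 became 1, with the file number the 2 lower became 1, and with either covariate the 10 became 3. Their summed signal was 46500 to 51400 in 67NR, 51600 to 65100 in 66cl4 and 21800 to 25900 in 4T1, and 0 were at background in any line. The 4T1 tumours thus had the lowest macrophage sums, and any bearing of this on the 10 genes was not tested. Csf1r, the macrophage growth factor receptor, was 2.38-fold lower in 4T1 than in 67NR (-1.25 ± 0.17, adjusted p = 0.0003).

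Endothelial markers were lower in both 66cl4 and 4T1 than in 67NR for 9 of 9, with sums of 5240 to 8080 in 67NR, 1290 to 1680 in 66cl4 and 1960 to 2250 in 4T1. None was at background. Of the 5 called higher in 4T1 than in 66cl4, 3 were called without 66cl4 replicate 1 or 2 or 4T1 replicate 2, and 3 with the hybridization controls as a covariate.

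Mast cell markers were lower in both 66cl4 and 4T1 than in 67NR for 6 of 6 (medians -5.15 and -5.60), with sums of 11000 to 15900 in 67NR, 339 to 440 in 66cl4 and 251 to 345 in 4T1. Ms4a2, of the IgE receptor, was at background in 66cl4 and 4T1. Of 7 fibroblast markers, 5 were higher in 66cl4 than in 67NR, and 5 were higher and 1 lower in 4T1 than in 67NR (medians 1.34 and 2.31). Without 67NR replicate 1 or 2 or 66cl4 replicate 2 the 5 higher in 66cl4 became 2, and with the file number 3. Fibroblast sums were 4350 to 5720 in 67NR, 8150 to 14400 in 66cl4 and 18000 to 42100 in 4T1, with the collagen gene Col1a1 15.2-fold higher in 4T1 than in 67NR (3.93 ± 0.42, adjusted p = 7.37e-05).

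Of 5 tested dendritic cell markers, 2 were lower and 0 higher in 66cl4 than in 67NR, 2 lower and 0 higher in 4T1 than in 67NR, and 1 higher and 1 lower in 4T1 than in 66cl4. With the hybridization controls these lower counts became 1, 0 and 0, and with the file number the second became 0. Xcr1 was at background in all lines. Flt3 and Zbtb46 were not called in any comparison. Ccr7 and Cd209a had their lowest means in 4T1, where the 10 genes had their highest. For 4T1 minus 67NR, Ccr7 had -1.41 ± 0.25 (limma adjusted p = 0.00141) and Cd209a -0.64 ± 0.11 (limma adjusted p = 0.00143). Both calls were lost with either covariate, and in 4T1 each gene was above background on 1 array. Itgax, an integrin gene of dendritic and other myeloid cells singled out after its values were seen, read 9.20, 8.41 and 7.84 in 67NR, 6.23, 6.60 and 5.97 in 66cl4 and 8.76, 9.23 and 8.47 in 4T1. It was lowest in 66cl4 (-2.21 ± 0.33 against 67NR, adjusted p = 0.000639, and 2.55 ± 0.33 for 4T1 minus 66cl4, adjusted p = 0.000214), as the 10 genes were, while 67NR and 4T1 overlapped (0.34 ± 0.33, adjusted p = 0.448).

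The sums of the remaining lists are given without a test. Neutrophil markers summed to 1230 to 2630 in 67NR, 770 to 2100 in 66cl4 and 3400 to 5080 in 4T1. S100a8 and S100a9 carried the neutrophil sums of 4T1, while Csf3r and Cxcr2 were not called in any comparison. Markers of pericytes and smooth muscle summed to 7100 to 7650, 2830 to 3620 and 2530 to 5950 in that order of lines. The adipocyte sums were highest in 67NR, at 4680 to 5550 against 553 to 1310 in 66cl4 and 251 to 667 in 4T1. Fabp4 carried the 67NR sums, with Adipoq, Lep and Cidec at background there. Adipoq read 3.69, 3.68 and 3.38 in 67NR, 6.99, 4.88 and 3.22 in 66cl4 and 3.43, 3.43 and 4.71 in 4T1. B and plasma cell markers, at 313 to 899, 119 to 318 and 134 to 3570, and skeletal muscle markers, at 194 to 226, 199 to 500 and 202 to 282, overlapped between lines.

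Epithelial markers, which check the carcinoma label, summed to 380 to 436 in 67NR, 7420 to 9490 in 66cl4 and 25300 to 29300 in 4T1. Of 8, Krt7 and Cdh1 were at background in 67NR and in 66cl4, and Krt8 read 6.70, 6.94 and 6.58 in 67NR against 12.78 to 13.17 in 66cl4 and 13.29 to 13.69 in 4T1. Krt8 was the only one of the 8 called higher in 66cl4 than in 67NR with all 9 arrays, and it carried most of the 66cl4 sum, while 7 were called higher in 4T1 than in 67NR. Without 67NR replicate 2 or 66cl4 replicate 2, or with a replicate block, the 1 became 2. Krt18, the partner of Krt8, had 4.77 ± 0.54 in 67NR, 5.47 ± 0.46 in 66cl4 and 13.39 ± 0.10 in 4T1 (SD, n = 3). The 67NR tumours thus lacked most epithelial signal, as did 66cl4 apart from Krt8. The part that any of these cell types had in the differences of the 10 genes was not tested.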

How the data were processed

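Log2 signals of 45101 probe sets on 9 Affymetrix arrays were used as the authors deposited them, and the log2 scale was read from the values (2.42 to 14.8). The summary and normalization of probes are not given in the sources used here. Symbols came from the platform annotation, updated through Entrez identifiers to RefSeq's GRCm38.p6 table (34754 of 34958 probe sets with 1 symbol matched). Of the rest, 932 had several symbols and 9211 had none and were not used. The brightest probe set stood for a gene. Genes above the 40th percentile of their array on at least 3 arrays were tested. limma 3.58.1 in R 4.3.3 was fitted to all 9 arrays (group means, 6 residual and 3.63 prior degrees of freedom), with a two-sided test of each pair of lines and an F-test over the 3, which were checked on simulated data. With 3 mice against 3, the smallest exact permutation p would be 0.1.

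Background was the highest of 27 bacterial control probe sets per array. A gene above it on 0 of the 3 arrays of a line has only a bound, from the brighter line's mean against that background. A gene above it on 1 or 2 arrays keeps its measured difference. Summed marker signals are sums of 2 to the power of the log2 value over the measured markers.

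The 10 genes, the lists and the rules were chosen with earlier results of these data known, so no list is independent evidence. Named genes are the 10, a set of subunits, regulators and cell markers, up to 4 genes per pathway list with the smallest F-test p, and the 6 most correlated genes. Others named are marked by the counts they belong to. Alternatives were other filters, scaling, probe sets and variance models, covariates, a replicate block and leaving out each array.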

Additional observations from a re-analysis of the deposited data

How the results depend on the processing

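With each array left out in turn, the counts of the 10 genes remained 9 lower in 66cl4 than in 67NR, 9 higher in 4T1 than in 67NR and 10 higher in 4T1 than in 66cl4, and no call of a single gene of the 10 changed. The same held under no filter, a filter at the 60th percentile, quantile normalization, the mean of probe sets, a mean-variance trend and fits of only the lines compared. The 9 higher in 4T1 than in 67NR became 5 with the file number as a covariate and 5 with the hybridization controls as a covariate. Calls over all genes fell in that comparison as well, and the cause was not tested. With another probe set of a gene in place of the brightest, 36 of 42 differences kept their side of the threshold and 6 lost their call. No called difference changed sign, and B2m between 4T1 and 67NR, not called, went from 0.07 to -0.03. With replicate number as a replicate block the counts were 9, 9 and 10. Arrays of the same number did not deviate together (r from -0.11 to 0.16), so the numbers name the arrays and do not pair them.

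Of 120 counts over the pathway and marker lists, most of them small, 35 moved by more than 1.5 times with the file number as a covariate, 30 with the hybridization controls, 13 in fits of only the lines compared, 7 with the mean of probe sets and 7 with the block. Of 1080 such counts with 1 array left out, 116 moved. Of 117 differences of other named genes, 15 lost their call with the file number, 17 with the controls and 6 with the block. The arrays, 3 per line, limit the precision of all values.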

Other observations

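Further probe sets are annotated to more than 1 gene, among them 1 of the 10, and were left out of the tests of genes. A probe set shared by H2-K1 and H2-D1 read 12.13, 11.85 and 11.90 in 67NR, 9.88, 10.25 and 10.50 in 66cl4 and 12.28, 12.51 and 12.65 in 4T1, in the same order as the probe sets of each gene alone. Another shared by H2-Q5 and H2-K1 read 10.39, 9.78 and 9.50 in 67NR, 8.10, 8.28 and 7.89 in 66cl4 and 11.48, 11.31 and 11.03 in 4T1. The last, shared by H2-D1, H2-Q2 and Gm38417, lay close to background in all lines, with means of 4.96 ± 0.07 in 67NR, 4.91 ± 0.05 in 66cl4 and 4.95 ± 0.09 in 4T1 (SD, n = 3).

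Cyb561, which encodes an electron-transferring membrane protein, had one of the widest ranges among the genes named for their likeness to the 10. It read 7.80, 7.86 and 7.56 in 67NR, 5.29, 5.07 and 5.17 in 66cl4 and 9.67, 9.14 and 9.37 in 4T1, an 18.6-fold difference between 4T1 and 66cl4 (4.22 ± 0.15, adjusted p = 6.34e-08). The kinase gene Mapk9 covered a smaller range, at 8.51 ± 0.16 in 67NR, 7.53 ± 0.14 in 66cl4 and 9.11 ± 0.06 in 4T1 (SD, n = 3), and its call between 4T1 and 67NR (0.61 ± 0.12, adjusted p = 0.00233) was lost with the hybridization controls as a covariate (0.56, adjusted p = 0.105). Both genes were chosen for their likeness over these same arrays, so their order of lines and their p are not separate evidence.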
